A study of Homo sapiens with 12 samples.

Results

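The genes described here are 35 enzymes and subunits that make serine, folate one-carbon units, S-adenosylmethionine, purines, pyrimidines and deoxynucleotides. They were chosen by name from these pathways, out of 25369 genes in the count table, and all 35 were tested in each of the 3 cell lines. Poly(A)+ RNA was sequenced from RKO (colon carcinoma), A549 (lung adenocarcinoma) and H460 (large cell carcinoma of the lung) cells, each an established line, kept in normoxia or in 1% O2 for 24 h. The 6 groups had 2 replicates each, 12 libraries in all, and the labels give no engineered change in any line. RKO and A549 grew in DMEM and H460 in RPMI, so line and medium cannot be told apart where H460 is compared with another line. The study describes its RNA-seq replicates as independent biological ones.

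Serine gives a carbon to folate, and the carbon-bearing folates supply purine rings, thymidylate and the methyl group of methionine. Purines are built on a phosphoribosyl scaffold up to IMP, which then branches to AMP and GMP, while pyrimidines are built as a ring before the ribose is attached. Proliferating cancer cells draw on these routes for RNA and DNA, MYC and ATF4 are well known activators of many of the genes, and E2F factors activate several genes of deoxynucleotide supply in S phase. In poly(A)+ RNA from a culture, fewer cells in S phase and less RNA of a gene per cell cannot be told apart.

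The 5 genes used to check the hypoxic condition, CA9, NDRG1, VEGFA, SLC2A1 and PDK1, were called higher in all 3 lines, with log2 fold changes from 1.12 (SLC2A1 in H460) to 6.81 (CA9 in H460). Counted reads ranged from 27350424 to 41757584 per library, and the biological coefficient of variation was lowest in H460 (7.91%), against 15.0% for RKO and 18.9% for A549. The epithelial markers EPCAM, KRT8, KRT18 and CDH1 averaged at least 1 RPKM (reads scaled to gene length and library size) in A549, but only 3 of the 4 did so in RKO and 2 of 4 in H460. Of 5 colon markers 1 (CDX2) was present in RKO, and of 5 lung markers 1 (NAPSA) was present in A549 and 0 in H460, so most markers of the tissue of origin were absent. COL1A1 was the only one of 5 fibroblast and blood cell markers at 1 RPKM or more, in A549 and H460, while DCN, PTPRC, CD3E and PECAM1 stayed near 0 in every line.

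Stretches of upstream DNA are shown because they belong to the gene that was lower in every line (MAT2A), to a pyrimidine gene with an E-box before its start (DHODH) and to a pair of purine genes that share 1 start region (PPAT and PAICS). They were read from GRCh37, the build of the deposited coordinates, on the plus strand, and capitals mark the letters ACGTG or GCGTG, the cores of the element that HIF binds, on either strand.
MAT2A, chr2:85765907-85766100, the bases before the deposited start that share no annotated exon: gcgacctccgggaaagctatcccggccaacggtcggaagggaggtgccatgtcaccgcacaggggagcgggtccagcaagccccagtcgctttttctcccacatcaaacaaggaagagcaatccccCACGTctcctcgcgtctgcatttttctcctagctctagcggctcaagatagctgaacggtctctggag
DHODH, chr16:72042393-72042489, ending with the E-box: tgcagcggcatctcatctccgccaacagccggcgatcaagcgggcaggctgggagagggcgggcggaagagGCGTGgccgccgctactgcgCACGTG
PPAT and PAICS, chr4:57301803-57301914, the whole stretch between both starts: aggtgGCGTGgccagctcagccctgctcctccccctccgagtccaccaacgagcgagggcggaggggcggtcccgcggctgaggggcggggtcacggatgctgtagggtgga

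In a window of 300 bases around each deposited start (250 before it and 50 from it on, both strands), the 35 genes were searched for these letters. ACGTG was found in 12 of the 35 windows (34.3%), against 24.9% of the windows of tested genes and 22.0% of 25110 windows in all. GCGTG was found in 20 (57.1%), against 47.7% and 39.6%. The E-box CACGTG, the site of MYC and MXI1, which contains ACGTG, stood in 4 windows (11.4%, in PPAT, PAICS, DHODH and NME1), against 9.16% and 7.76%, and the PPAT and PAICS windows share 1 site. TGATGNAAT, a partial site of ATF4, and the E2F words TTTCGCGC and TTTGGCGC were in 0 of the 35 windows and in under 1% of the windows of tested genes (0.537%, 0.789% and 0.873%). A match is a description of letters and no measure of binding.

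Many of these genes were called lower in hypoxia in RKO and H460, and few of them in A549, where fewer of all tested genes were called too. Calls needed an edgeR p under 0.1, adjusted over all tested genes (Benjamini-Hochberg), and a fold change over 1.5. In RKO, 17 of the 35 were called lower, against 15.1% of all tested genes, and 2 were called higher, against 18.8%. In H460, 22 were called lower, against 27.3%, and 3 higher, against 24.6%. In A549, 2 were called lower, against 0.456%, and 0 were called higher, against 2.22%. At an unadjusted p under 0.05 the A549 libraries gave 9 genes below zero and 0 above, and DESeq2 and limma also called 0 of them higher. The share of all tested genes at that unadjusted threshold was not computed, here or for the further lists below. The median log2 fold change of the 35 genes was -1.02 in H460, -0.58 in RKO and -0.29 in A549, beside medians over all tested genes of -0.04, 0.01 and -0.01. Scaling by library size alone moved the median of all genes in H460 by -0.35 and the share of higher genes among all those called from 47.5% to 26.5%, and it gave 26 of the 35 lower and 2 higher there. In RKO all 8 genes of the route to IMP and all 5 pyrimidine genes were below zero, and in H460 7 of the 8 (all but PAICS) and all 5 were. Of all tested genes, 6332 of 12817 were below zero in RKO and 7281 of 14080 in H460. The H460 values of PPAT (-0.06) and CTPS2 (-0.05) were close to zero.

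**Figure D1:**
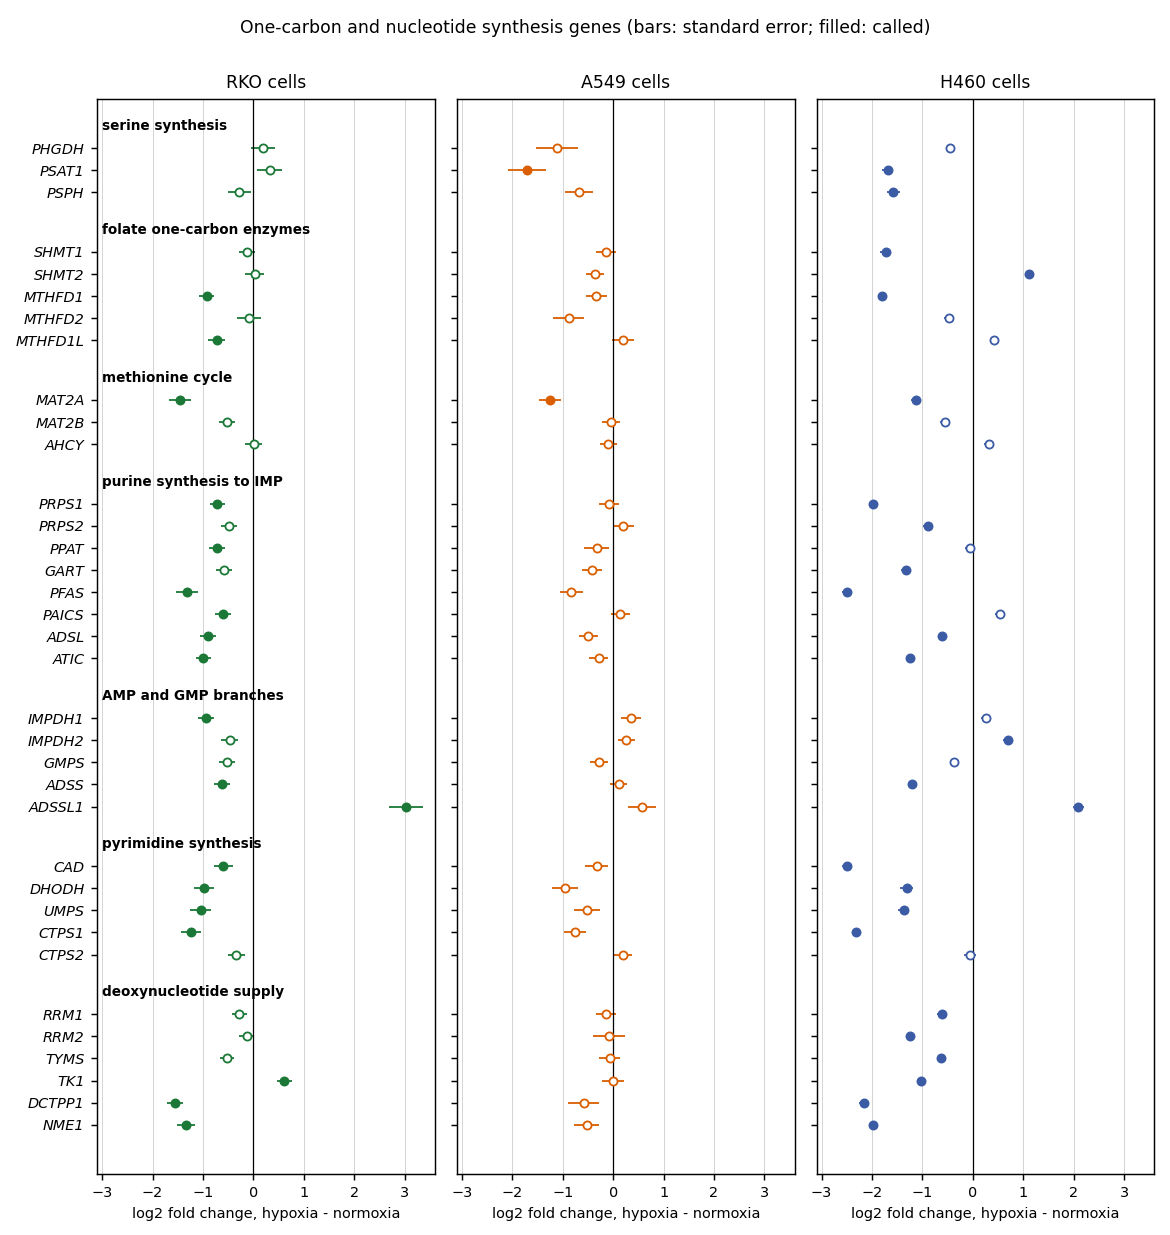
Log2 fold change of hypoxia against normoxia (x axis) for each of the 35 genes (y axis, grouped by role) in RKO, A549 and H460, with bars for the standard error and filled points for called genes. Filled points left of zero number 17 in RKO, 2 in A549 and 22 in H460.

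Over the lines, 26 genes were called lower in at least 1 line, 14 in at least 2 and 1, MAT2A, in all 3. Among genes tested in every line the shares were 9.37% for at least 2 lines and 0.109% for all 3. Of the 13 genes lower in exactly 2 lines, 12 were lower in RKO and H460 (MTHFD1, PRPS1, PFAS, ADSL, ATIC, ADSS, CAD, DHODH, UMPS, CTPS1, DCTPP1 and NME1) and PSAT1 was lower in A549 and H460. The 6 genes called in no line were PHGDH, MTHFD2, MAT2B, AHCY, GMPS and CTPS2. Of these, DESeq2 called PHGDH and MTHFD2 lower in A549. Library size scaling and both limma fits called PHGDH, MTHFD2, MAT2B and GMPS lower in H460. In the joint fit of all 12 libraries the average effect over the lines was called lower for 16 genes, against 11.5% of tested genes, and higher for 1 (ADSSL1), against 14.8%.

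The share of all counted reads that fell on the 35 genes also dropped in every line. It was 0.640% and 0.617% in the RKO normoxia libraries and 0.482% and 0.468% in hypoxia. In A549 it went from 0.556% and 0.605% to 0.453% and 0.371%, and in H460 from 0.798% and 0.805% to 0.451% and 0.467%. These shares are of unscaled counts, and the genes with the most reads weigh most in them. TMM scaling factors in H460 were 1.12 and 1.14 in normoxia and 0.866 and 0.904 in hypoxia. With such factors the drop would be smaller in H460 and A549 and larger in RKO. The unscaled shares of the conditions did not overlap in any line. The lowest A549 value belongs to hypoxia replicate 2, in which 28 of the 35 genes were below replicate 1 and in which NDRG1, a gene strongly induced by hypoxia, stood at 1770 CPM against 688 CPM (counts scaled to library size with TMM factors). NDRG1 is 1 of the 5 genes used to check the hypoxic condition, and the others are not compared between replicates here. A549 normoxia replicate 2 stood apart in another way: PHGDH, PSAT1, PSPH and MTHFD2 were more than 1.5 times their level in replicate 1, as were 9 of 12 ATF4 target genes. Shares over all tested genes were not computed for these comparisons of replicates. Without A549 hypoxia replicate 1 the count of genes called lower in A549 was 12 and that of genes called higher 1, while over all genes the calls went from 65 to 752 lower and from 316 to 1083 higher. Without normoxia replicate 1 it was 6 lower, without hypoxia replicate 2 it was 4, and without normoxia replicate 2 it was 2. With the replicate number as a block in the fit, 9 genes were called lower in A549 (PHGDH, PSPH, MTHFD2, PFAS, DHODH, CTPS1 and DCTPP1 in addition to PSAT1 and MAT2A), while over all genes the block gave 723 lower and 1189 higher, and the blocked counts in RKO and H460 stayed within 1.5 times those above.

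MAT2A (chr2:85766101-85772403, GRCh37, plus strand) encodes the catalytic subunit that makes S-adenosylmethionine, the methyl donor of the cell. In RKO it stood at 347 and 410 CPM in normoxia and at 105 and 171 CPM in hypoxia, a log2 fold change of -1.46 ± 0.22 (SE, edgeR adjusted p = 0.000751). A549 libraries had 871 and 1277 CPM in normoxia and 477 and 424 CPM in hypoxia (-1.25 ± 0.22, adjusted p = 0.0297). H460 libraries had 1189 and 1319 CPM in normoxia and 569 and 575 CPM in hypoxia (-1.13 ± 0.10, adjusted p = 9.13e-07). Every hypoxia library was below every normoxia library of its line. The effect was not shown to differ between lines, with differences of -0.16 ± 0.30 (RKO minus A549), -0.28 ± 0.30 (RKO minus H460) and -0.12 ± 0.30 (A549 minus H460). Without A549 normoxia replicate 2 the A549 value was -0.95 (adjusted p = 0.0803).

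The other genes of the methionine cycle were called in no line. MAT2B, the regulatory subunit of the same enzyme, had log2 fold changes of -0.53 ± 0.16, -0.04 ± 0.18 and -0.55 ± 0.10 in RKO, A549 and H460, under the fold threshold in each line. AHCY, which clears the product of methyl transfer, had 0.00 ± 0.17, -0.09 ± 0.17 and 0.31 ± 0.09. The sign in H460 depended on the scaling, since the mean RPKM of AHCY there, scaled without TMM factors, was 131 in normoxia and 127 in hypoxia. The ratio of MAT2A to MAT2B within a library does not depend on how libraries are scaled. It was 3.37 and 5.01 in RKO normoxia against 1.67 and 2.61 in hypoxia. It was 15.1 and 19.2 against 7.58 and 7.37 in A549, and 20.8 and 27.1 against 15.7 and 15.9 in H460. All hypoxia ratios were below the normoxia ratios of the same line. The mean change was -0.92 on the log2 scale (exact 2-sided permutation of oxygen labels within lines, 216 arrangements, p = 0.00926, the smallest they can give, adjusted p = 0.0208 over 9 pairs). With the replicate block, where labels were swapped only within a replicate number, it did not pass (exact permutation p = 0.0312, the smallest that 64 arrangements can give, adjusted p = 0.0563).

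PSAT1 (chr9:80911991-80945009), the aminotransferase on the way from glycolysis to serine, stood at 215 and 137 CPM in RKO normoxia and 269 and 171 CPM in hypoxia, overlapping values with a log2 fold change of 0.32 ± 0.24. In A549 it went from 129 and 294 CPM to 81.9 and 47.9 CPM (-1.70 ± 0.37, adjusted p = 0.0725). In H460 it went from 620 and 573 CPM to 171 and 198 CPM (-1.69 ± 0.10, adjusted p = 5.3e-08). The effect in RKO differed from both lung lines, by 2.08 ± 0.49 from A549 (adjusted p = 0.0198) and by 2.07 ± 0.49 from H460 (adjusted p = 0.00594). The A549 value rests partly on normoxia replicate 2, since without it the log2 fold change was -0.99 (adjusted p = 0.0976) and without normoxia replicate 1 it was -2.18. Library size scaling and both limma fits took the A549 call away (adjusted p = 0.114, 0.148 and 0.194).

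PSPH, the phosphatase that releases serine, was called lower in H460, from 20.7 and 18.7 CPM to 6.51 and 6.69 CPM (-1.58 ± 0.13), with -0.28 ± 0.23 in RKO and -0.68 ± 0.27 in A549. The replicate block called it lower in A549 too (-0.63 ± 0.20, edgeR adjusted p = 0.0218). PHGDH, the dehydrogenase that commits glycolytic carbon to serine, was called in no line. Its A549 normoxia libraries held 31.7 and 97.2 CPM and its hypoxia libraries 29.9 and 29.8 CPM (-1.11 ± 0.41, adjusted p = 0.235). The replicate block called PHGDH lower in A549 (-0.90 ± 0.22, edgeR adjusted p = 0.0037). Normoxia replicate 1 was close to both hypoxia libraries, and replicate 2 stood alone. In H460 PHGDH went from 325 and 317 CPM to 231 and 238 CPM (-0.45 ± 0.09, adjusted p = 0.000516), under the fold threshold.

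SHMT2, the mitochondrial serine hydroxymethyltransferase, rose in H460 from 463 and 453 CPM to 1016 and 978 CPM (1.12 ± 0.09, adjusted p = 6.07e-07). SHMT1, the cytosolic form, fell in H460 from 54.2 and 51.6 CPM to 14.9 and 17.0 CPM (-1.73 ± 0.10, adjusted p = 4.41e-08). The ratio of SHMT2 to SHMT1 in H460 was 8.54 and 8.79 in normoxia and 68.4 and 57.7 in hypoxia. In RKO and A549 neither gene was called, with log2 fold changes of 0.02 ± 0.18 and -0.36 ± 0.18 for SHMT2 and of -0.13 ± 0.15 and -0.14 ± 0.20 for SHMT1. The ratio over all 3 lines did not pass its test (mean change 0.93, exact permutation p = 0.213, adjusted p = 0.240). The H460 effect on SHMT2 differed from RKO (RKO minus H460 -1.05 ± 0.24, adjusted p = 0.00461) and from A549 (A549 minus H460 -1.48 ± 0.24, adjusted p = 0.000681).

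MTHFD1, the cytosolic enzyme with 3 activities that carries the carbon to formyl-folate, fell in RKO from 263 and 244 CPM to 130 and 137 CPM (-0.93 ± 0.15) and in H460 from 186 and 172 CPM to 49.6 and 53.7 CPM (-1.79 ± 0.09). In A549 its values overlapped (245 and 205 CPM against 210 and 147 CPM). MTHFD1L, which releases formate from mitochondria, was called lower in RKO only, from 109 and 107 CPM to 72.1 and 57.9 CPM (-0.73 ± 0.16), and its H460 value had the opposite sign without passing the fold threshold (0.42 ± 0.08). That difference passed its own test (RKO minus H460 -1.11 ± 0.24, adjusted p = 0.00349). The mean H460 RPKM of MTHFD1L, scaled without TMM factors, was 24.1 in normoxia and 25.3 in hypoxia, so its H460 rise depended on the scaling. MTHFD2, the mitochondrial dehydrogenase, was called in no line, with -0.08 ± 0.24, -0.88 ± 0.31 and -0.47 ± 0.09 in RKO, A549 and H460. The replicate block called it lower in A549 (-0.77 ± 0.16, edgeR adjusted p = 0.000729). The ratio of MTHFD2 to MTHFD1 was higher in hypoxia in RKO and H460 without overlap and overlapped in A549 (mean change 0.57, exact permutation adjusted p = 0.202; without A549 normoxia replicate 2 it was 0.80, adjusted p = 0.0476).

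**Figure D2:**
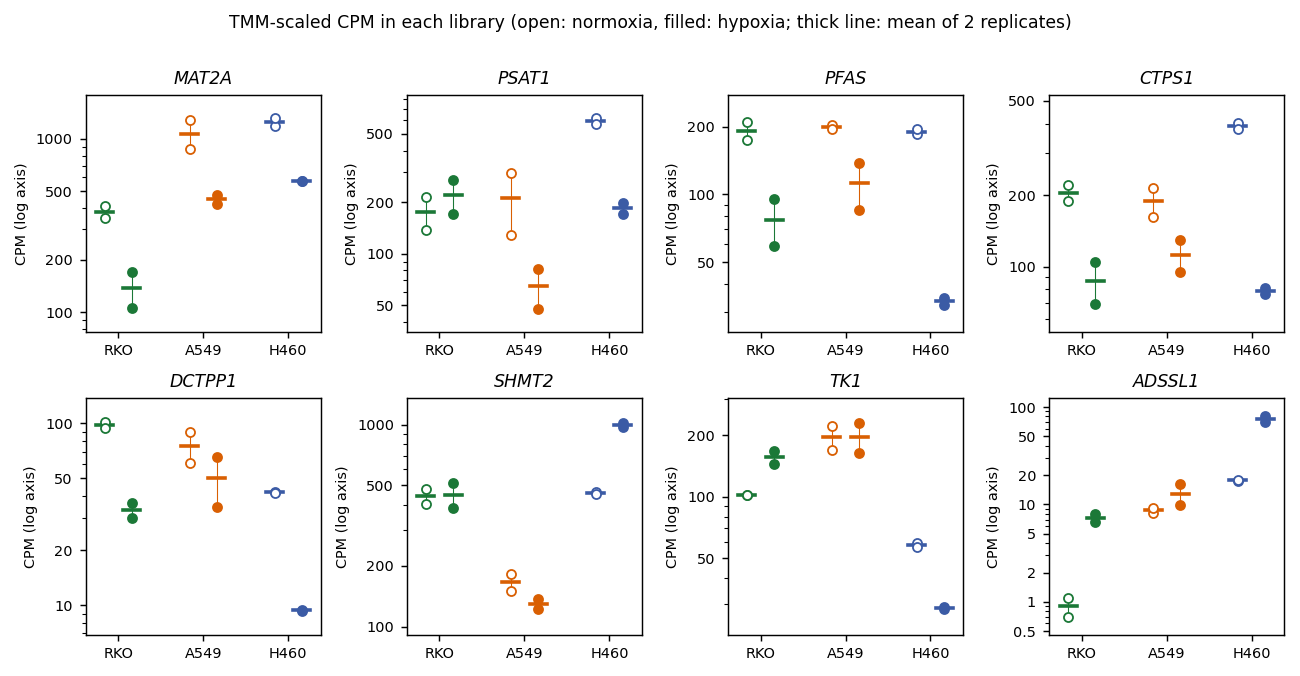
TMM-scaled CPM on a log axis for MAT2A, PSAT1, PFAS, CTPS1, DCTPP1, SHMT2, TK1 and ADSSL1 in each library by cell line, with open points for normoxia, filled points for hypoxia and a thick line at the mean of 2 replicates. MAT2A is lower in hypoxia in each line, SHMT2 was called higher in H460, and TK1 goes up in RKO and down in H460.

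Of the 8 genes that build IMP, 6 were called lower in RKO (15.1% of all tested genes were) and 6 in H460 (27.3%). In A549 the count was 0 (0.456%), and DESeq2 called 1, PFAS. The median log2 fold changes of the 8 were -0.72, -0.31 and -1.07 in RKO, A549 and H460. PFAS (chr17:8152596-8173809), which adds an amide nitrogen midway through the route, had with CAD the lowest log2 fold change of the 35 in H460, where it went from 185 and 195 CPM to 32.3 and 34.7 CPM (-2.50 ± 0.09, adjusted p = 1.75e-09). It fell in RKO from 174 and 210 CPM to 59.1 and 95.3 CPM (-1.31 ± 0.22, adjusted p = 0.0012). In A549 it had 203 and 195 CPM against 138 and 85.5 CPM, groups that do not overlap but did not pass (-0.83 ± 0.23, adjusted p = 0.138). The replicate block called PFAS lower in A549 (-0.87 ± 0.14, edgeR adjusted p = 3.37e-05).

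PRPS1, one of the enzymes that make the phosphoribosyl scaffold, fell in H460 from 82.0 and 76.4 CPM to 20.1 and 20.2 CPM (-1.97 ± 0.09) and in RKO from 130 and 115 CPM to 71.2 and 77.9 CPM (-0.72 ± 0.15). Its isozyme PRPS2 changed less, with a call in H460 (-0.90 ± 0.09) and none in RKO (-0.48 ± 0.16) or A549 (0.20 ± 0.21). The ratio of PRPS1 to PRPS2 was lower in hypoxia without overlap in each line, by -0.24, -0.30 and -1.08 on the log2 scale in RKO, A549 and H460 (mean -0.54, exact permutation p = 0.00926, adjusted p = 0.0208). Swapping labels within replicate numbers alone gave an exact permutation adjusted p of 0.0563, which did not pass. The unadjusted permutation p was 0.0312, the smallest that 64 arrangements can give, as for each ratio below with an adjusted p of 0.0563.

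GART and ATIC use formyl-folate and so tie purines to the folate cycle. ATIC fell in RKO from 183 and 168 CPM to 86.0 and 90.1 CPM (-0.99 ± 0.15) and in H460 from 163 and 168 CPM to 68.2 and 71.7 CPM (-1.24 ± 0.09). GART fell in H460 from 159 and 162 CPM to 60.6 and 66.7 CPM (-1.33 ± 0.09), while its RKO value of -0.58 ± 0.15 lay just under the fold threshold. ADSL, which acts both on the way to IMP and on the way to AMP, was lower in RKO (-0.90 ± 0.15) and in H460 (-0.61 ± 0.08), the latter just over the threshold and not called by DESeq2 or with RLE factors.

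PPAT, the committed step of purine synthesis, and PAICS, an enzyme with a pair of later activities, start 112 bases apart on opposite strands of chromosome 4 (the stretch shown above). In RKO both were called lower, PPAT from 134 and 113 CPM to 76.0 and 74.0 CPM (-0.72 ± 0.15) and PAICS from 725 and 602 CPM to 449 and 426 CPM (-0.60 ± 0.17). In H460 PPAT had 42.9 and 39.6 CPM against 40.4 and 38.6 CPM (-0.06 ± 0.09), while PAICS had 277 and 270 CPM against 403 and 387 CPM (0.53 ± 0.09, adjusted p = 0.000181), under the fold threshold. In mean H460 RPKM, scaled without TMM factors, PAICS went from 87.9 to 99.4 and PPAT from 12.6 to 9.44. In A549 the CPM values of both overlapped. The ratio of PAICS to PPAT was higher in each hypoxia library than in the normoxia libraries of its line. It was 5.41 and 5.31 against 5.91 and 5.75 in RKO, 6.78 and 7.66 against 9.07 and 10.9 in A549, and 6.47 and 6.83 against 9.97 and 10.0 in H460. The mean change of 0.39 on the log2 scale passed (exact permutation p = 0.00926, adjusted p = 0.0208), but not with the replicate block (adjusted p = 0.0563). The PAICS call in RKO fell under the fold threshold with library size scaling, both limma fits, the joint fit and the 2 CPM filter, and its effect differed between RKO and H460 (-1.09 ± 0.21, adjusted p = 0.00206).

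The branches from IMP held 2 of the 4 genes called higher in any line. ADSSL1 (chr14:105190534-105213647), the adenylosuccinate synthase known from muscle, rose in RKO from 0.699 and 1.10 CPM to 8.03 and 6.65 CPM (3.02 ± 0.33, adjusted p = 0.000181) and in H460 from 17.6 and 18.0 CPM to 70.6 and 81.4 CPM (2.09 ± 0.10, adjusted p = 1.04e-08). In A549 it had 8.16 and 9.23 CPM against 9.77 and 16.1 CPM (0.57 ± 0.29, adjusted p = 0.356). Its more widely expressed partner ADSS fell in RKO (-0.63 ± 0.16) and in H460, from 88.8 and 80.7 CPM to 38.1 and 35.6 CPM (-1.20 ± 0.09). The count ratio of ADSS to ADSSL1 therefore went from 5.05 and 4.48 to 0.540 and 0.437 in H460 and from 99.4 and 55.6 to 5.44 and 6.11 in RKO. In A549 the ratios overlapped, and the mean change was -2.47 (exact permutation p = 0.0185, adjusted p = 0.0333, and 0.0563 with the replicate block). The ADSS call in RKO was lost with library size scaling, both limma fits and the joint fit.

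IMPDH1 and IMPDH2 are isozymes of the first step to GMP. IMPDH1 was called lower in RKO, from 276 and 323 CPM to 152 and 158 CPM (-0.95 ± 0.16), with 0.36 ± 0.20 in A549 and 0.26 ± 0.10 in H460. IMPDH2 was called higher in H460, from 426 and 417 CPM to 706 and 655 CPM (0.69 ± 0.09, adjusted p = 3.27e-05), with -0.47 ± 0.17 in RKO and 0.26 ± 0.18 in A549. The effect in RKO was below that in H460 for both (IMPDH1 -1.17 ± 0.23, adjusted p = 0.00211; IMPDH2 -1.11 ± 0.22, adjusted p = 0.00199). The H460 call of IMPDH2 depended on the scaling, since library size alone gave 0.34 and no call. So did the sign of IMPDH1 in H460, where its mean RPKM, scaled without TMM factors, was 44.7 in normoxia and 42.1 in hypoxia. GMPS, which closes the GMP branch, was under the fold threshold in each line.

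CAD, DHODH, UMPS and CTPS1 were called lower in both RKO and H460, 4 of 5 genes in each line, against 15.1% and 27.3% of all tested genes. The median log2 fold change of the 5 was -0.98, -0.52 and -1.37 in RKO, A549 and H460. CAD (chr2:27440258-27466654), which carries the first 3 activities of the route, fell in H460 from 204 and 214 CPM to 34.8 and 38.9 CPM (-2.50 ± 0.10, adjusted p = 2.12e-09). Its RKO value, 204 and 283 CPM against 145 and 178 CPM, was close to the fold threshold (-0.59 ± 0.19, adjusted p = 0.0292). The RKO call was lost with the replicate block, the 2 CPM filter, the joint fit, library size scaling and both limma fits. The H460 effect differed from that in RKO by 1.95 ± 0.28 (adjusted p = 0.000244) and from that in A549 by 2.17 ± 0.28 (adjusted p = 0.00019).

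DHODH, the mitochondrial step that passes electrons to the respiratory chain, fell from 22.1 and 24.3 CPM to 10.3 and 13.2 CPM in RKO (-0.98 ± 0.21) and from 21.3 and 20.4 CPM to 7.73 and 9.05 CPM in H460 (-1.31 ± 0.13). UMPS, which attaches the ribose and forms UMP, fell in RKO (-1.04 ± 0.21) and in H460 (-1.37 ± 0.11). In A549 DHODH had 19.0 and 17.8 CPM against 11.2 and 7.69 CPM (-0.95 ± 0.25, adjusted p = 0.12), without overlap and without a call. The replicate block called it lower there (-0.98 ± 0.21, edgeR adjusted p = 0.000965).

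CTPS1 (chr1:41445007-41478235), which makes CTP from UTP, had 189 and 221 CPM against 69.6 and 104 CPM in RKO (-1.24 ± 0.20), 162 and 214 CPM against 129 and 94.5 CPM in A549 (-0.75 ± 0.22, adjusted p = 0.15) and 404 and 380 CPM against 81.0 and 76.8 CPM in H460 (-2.31 ± 0.09, adjusted p = 2.78e-09). Its isozyme CTPS2 had -0.34 ± 0.16, 0.19 ± 0.19 and -0.05 ± 0.12. The replicate block called CTPS1 lower in A549 (-0.75 ± 0.15, edgeR adjusted p = 0.000488). The ratio of CTPS1 to CTPS2 was lower in hypoxia in every line without overlap, by -0.93, -0.95 and -2.25 (mean -1.38, exact permutation p = 0.00926, adjusted p = 0.0208, and 0.0563 with the replicate block). In hypoxia it lay between 2.50 and 3.82 in all 6 libraries, whereas the normoxia libraries had 14.9 and 12.5 in H460, 5.30 and 6.56 in RKO, and 5.29 and 6.41 in A549.

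**Figure D3:**
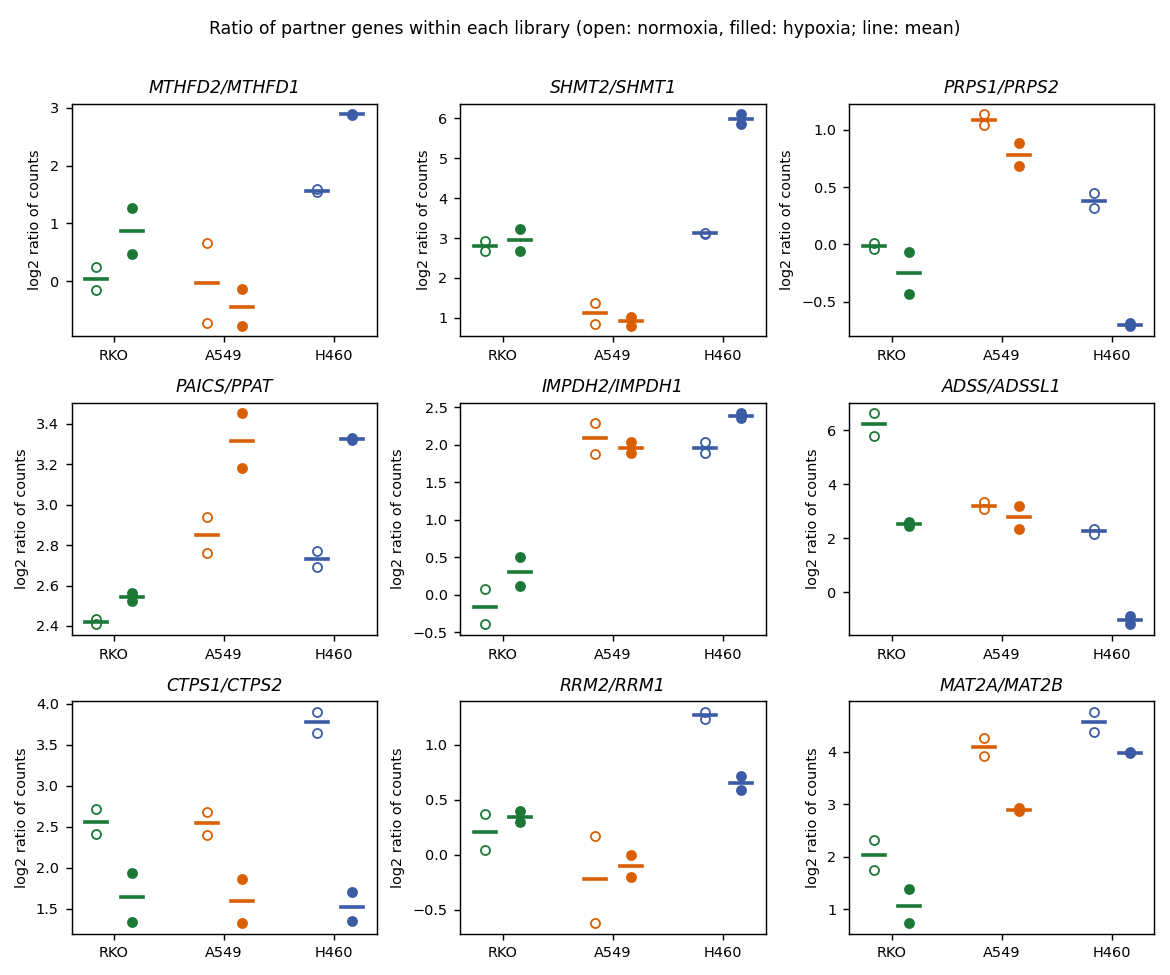
Log2 ratio of counts of 9 pairs of partner genes (y axis) in each library by cell line, with open points for normoxia, filled points for hypoxia and lines at the means. PRPS1/PRPS2, CTPS1/CTPS2 and MAT2A/MAT2B are lower and PAICS/PPAT is higher in hypoxia in every line without overlap.

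All 6 genes of deoxynucleotide supply were called lower in H460, against 2 in RKO and 0 in A549. The shares among all tested genes were 27.3%, 15.1% and 0.456%. In H460, RRM1 (-0.62) and TYMS (-0.63) lay just over the fold threshold. DCTPP1 (chr16:30435019-30441373), which removes damaged or surplus dCTP, fell in RKO from 102 and 94.2 CPM to 30.2 and 36.7 CPM (-1.55 ± 0.17, adjusted p = 0.000152), the lowest fold change of the 35 in that line, and in H460 from 42.1 and 41.6 CPM to 9.42 and 9.30 CPM (-2.16 ± 0.11). The replicate block called DCTPP1 lower in A549 (-0.63 ± 0.15, edgeR adjusted p = 0.00237). NME1, a kinase that turns nucleoside diphosphates into triphosphates, fell in RKO from 146 and 125 CPM to 47.3 and 60.1 CPM (-1.34 ± 0.17) and in H460 from 140 and 139 CPM to 36.0 and 34.7 CPM (-1.98 ± 0.09). Reads on the annotated fusion of NME1 with its neighbour NME2 numbered 4 to 66 per library, against 941 to 7336 on NME1.

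Ribonucleotide reductase makes deoxynucleotides, with RRM1 as its large and RRM2 as its small subunit. RRM2 fell in H460 from 294 and 278 CPM to 123 and 120 CPM (-1.24 ± 0.09) and RRM1 from 125 and 113 CPM to 74.7 and 79.7 CPM (-0.62 ± 0.09). In RKO both stayed under the threshold (-0.13 ± 0.15 and -0.28 ± 0.15). The A549 libraries of RRM2 spread widely, with 193 and 95.9 CPM in normoxia and 164 and 108 CPM in hypoxia. The ratio of RRM2 to RRM1 did not pass (mean change -0.12, exact permutation p = 0.519). TYMS, which makes thymidylate with a folate-borne carbon, was lower in H460 (-0.63 ± 0.09), with -0.52 ± 0.15 in RKO and -0.07 ± 0.20 in A549.

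TK1, the thymidine kinase of S phase, was the 1 gene of the 35 called in opposite directions. In RKO it rose from 102 and 102 CPM to 167 and 145 CPM (0.61 ± 0.15, adjusted p = 0.00915), in A549 it had 222 and 169 CPM against 228 and 163 CPM (0.00 ± 0.22), and in H460 it fell from 59.2 and 56.5 CPM to 28.1 and 28.9 CPM (-1.02 ± 0.09, adjusted p = 1.14e-06). The RKO and H460 effects differed by 1.68 ± 0.24 (adjusted p = 0.000227). Without RKO hypoxia replicate 1 the RKO value was 0.55, under the fold threshold.

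The hypoxia effect differed between RKO and A549 for 9 of the 35 genes at an adjusted p under 0.1 (14.6% of all tested genes did), for 20 when RKO was set against H460 (37.6%) and for 20 when A549 was set against H460 (36%). In the last comparison 18 of the 20 were lower in H460. Of the 9 genes that differed between RKO and A549, 6 had the lower effect in RKO and 3 the higher. Only ATIC and ADSS of the 12 genes called lower in RKO and H460 and not in A549 were among those 9. With the replicate block the count for RKO and A549 was 18. It was 3 without RKO normoxia replicate 1, 16 without A549 normoxia replicate 1, and 5 without H460 normoxia replicate 2 or either H460 hypoxia library, since all 12 libraries share the fit.

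Normoxic levels differed, at an adjusted p under 0.1 and a fold over 1.5, for 13 genes between RKO and A549, 9 of them higher in RKO (26% of tested genes) and 4 lower (34.1%). Between RKO and H460, 8 were higher in RKO (27.2%) and 8 lower (34.7%), and between A549 and H460, 3 were higher in A549 (26.9%) and 10 lower (25.2%). In each pair the share of the 35 genes that differed was below that of all tested genes. On the RPKM scale, which corrects for gene length, MAT2A had the highest normoxic level of the 35 in H460 (472 ± 41.6, SD, n = 2) and A549 (370 ± 104), and PAICS in RKO (183 ± 19.7), where MAT2A was at 123 ± 17.2. PSAT1 was at 299 ± 12.3 RPKM in H460, 97.1 ± 54.8 in A549 and 75.5 ± 21.7 in RKO.

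PHGDH followed the same order of H460 above the other two, with 180 ± 0.347, 60.9 ± 12.4 in RKO and 33.2 ± 24.2 in A549. ADSSL1 showed the widest range, from 0.422 ± 0.142 RPKM in RKO to 9.68 ± 0.307 in H460. At the other end, the normoxic RPKM of CAD (33.4 ± 8.42, 32.6 ± 4.19 and 33.2 ± 1.62 in RKO, A549 and H460) and of CTPS2 (6.84 ± 0.102, 6.72 ± 0.506 and 6.59 ± 0.622) lay within their replicate spread.

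**Figure D4:**
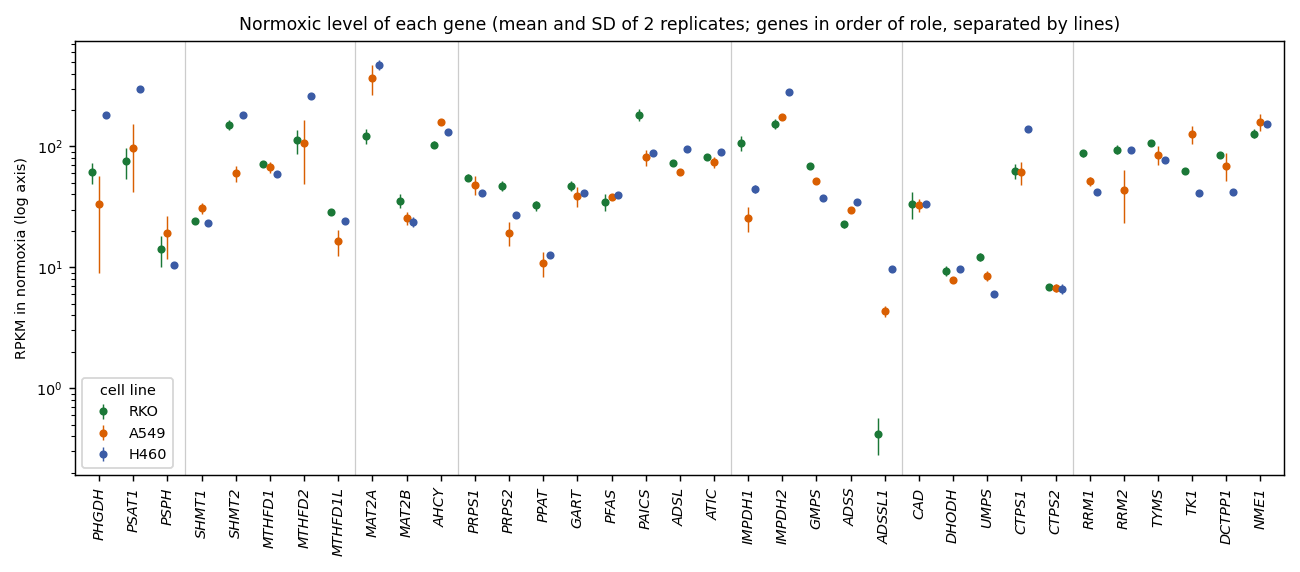
RPKM in normoxia on a log axis (y axis) for the 35 genes in order of role (x axis), as the mean and SD of 2 replicates in RKO, A549 and H460. MAT2A is the highest point in H460 and A549, and ADSSL1 in RKO the lowest.

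Genes around these pathways were read from further lists. For comparison, 15.1% of all tested genes in RKO, 0.456% in A549 and 27.3% in H460 were called lower. Those called higher were 18.8%, 2.22% and 24.6% in the same order. Of 15 S phase genes, RKO had 8 called lower, A549 had 0 and H460 had 13, with medians of -0.67, -0.30 and -2.51. In A549, 0 of them were below zero at an unadjusted p under 0.05 either. The extreme called genes were MCM5, a subunit of the replicative helicase, in RKO (152 and 174 CPM against 74.7 and 81.4 CPM) and E2F1 in H460 (66.8 and 76.8 CPM against 5.17 and 5.45 CPM). The S phase median in H460 was lower than that of the 35 genes, and the part of these genes in the change of the 35 was not tested. Of the other folate and methionine genes, RKO had 7 of 21 tested called lower, A549 had 0 of 25 and H460 had 12 of 24, and 3, 1 and 4 higher. At an unadjusted p under 0.05, 6 of them were below zero in A549. SLC19A1, the reduced folate carrier, was the lowest called gene in RKO (48.8 and 69.2 CPM against 15.5 and 24.0 CPM) and in H460 (20.2 and 19.6 CPM against 2.95 and 2.90 CPM). The highest called were AMT of the glycine cleavage system in RKO (2.34) and SMS, spermine synthase, in A549 (0.94).

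Of the salvage and interconversion genes, 5 of 34 were lower and 2 higher in RKO, 0 of 34 lower and 3 higher in A549, and 11 of 35 lower and 8 higher in H460, with medians of -0.21, -0.00 and -0.20. The shares of all tested genes called lower were 15.1%, 0.456% and 27.3% in the same order of lines, and those called higher 18.8%, 2.22% and 24.6%. At an unadjusted p under 0.05, 2 were below zero in A549. The highest called were AMPD3 in RKO (1.55), AK4, a mitochondrial adenylate kinase, in A549 (2.19) and CDA, cytidine deaminase, in H460 (3.46), and the lowest were ITPA in RKO (-1.01) and SAMHD1 in H460 (-1.92). The plot of list shares sets these lists beside the 35 genes.

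**Figure D5:**
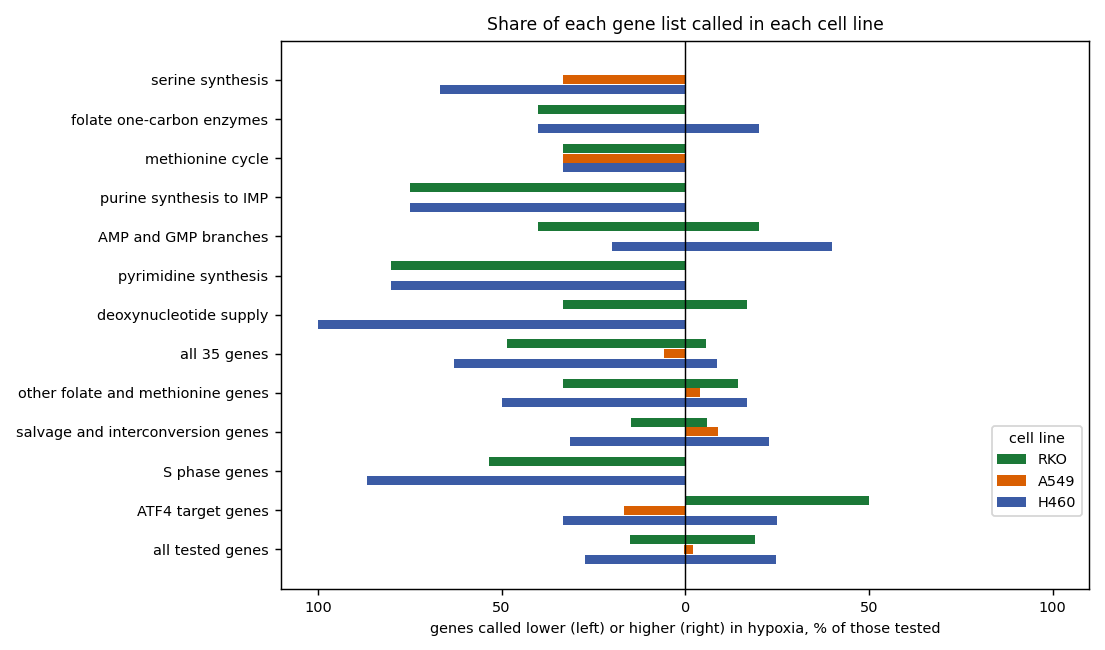
Percentage of tested genes called lower (left) or higher (right) in hypoxia in RKO, A549 and H460 (x axis) for each role, each further list and all tested genes (y axis). In H460 all 6 deoxynucleotide genes and 13 of 15 S phase genes were called lower, and in A549 most lists have no bar on the left.

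Of the regulators, MYC was called lower in RKO, from 576 and 500 CPM to 286 and 301 CPM (-0.87 ± 0.16), with -0.12 ± 0.22 in A549 and -0.36 ± 0.09 in H460. MXI1, which competes with MYC for E-boxes, was called higher in every line (0.92 ± 0.28, 2.06 ± 0.36 and 3.32 ± 0.11 in RKO, A549 and H460). E2F1 was called lower in H460 (-3.76 ± 0.12), with 0.13 ± 0.17 in RKO and -0.62 ± 0.31 in A549. HIF1A itself was lower in RKO (-1.75 ± 0.16) and A549 (-1.16 ± 0.23), with -0.14 ± 0.11 in H460.

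ATF4 was called in no line (-0.27 ± 0.21, -0.63 ± 0.19 and 0.53 ± 0.10). Of its targets, 5 of 10 tested were higher and 0 lower in RKO, 2 of 12 lower and 0 higher in A549, and 3 higher and 4 lower of 12 in H460, with medians of 0.57, -1.20 and -0.20. Beside these, 18.8%, 2.22% and 24.6% of all tested genes were called higher in RKO, A549 and H460, and 15.1%, 0.456% and 27.3% lower. The H460 counts of the targets were thus near the shares of all tested genes. At an unadjusted p under 0.05, 9 of the 12 targets were below zero in A549. ATF3 was the highest in RKO (2.02), CHAC1 the lowest in A549 (2.47 and 25.2 CPM against 1.22 and 0.789 CPM), and SLC7A11 the lowest (-2.03) and VLDLR the highest (1.81) in H460. In A549 all 12 targets were above replicate 1 in normoxia replicate 2, the A549 library that also held the most PHGDH, PSAT1, PSPH and MTHFD2, and the part of that library in the A549 values was tested only by leaving it out, as given above.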

How the data were processed

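Poly(A)+ RNA was prepared with TRI reagent and a stranded TruSeq mRNA kit. The authors deposited a table of raw read counts and another of RPKM per gene (reads scaled to gene length and library size). The submitters' processing notes name bcl2fastq, FastQC 0.11.5, TopHat2 2.0.13, Bowtie2 2.2.3.0, SAMtools 1.3.1, Picard 1.129, HTSeq 0.6.1 and the builds GRCh37 and hg19. No column of per-sample values was left unmapped.

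Counts were tested with edgeR 4.0.16 (quasi-likelihood, TMM, R 4.3.3) in each line's own 4 libraries, for genes over 0.5 CPM in at least 2 of them, and called at a Benjamini-Hochberg adjusted p under 0.1 and a fold change over 1.5. Differences of the effect between lines (adjusted p under 0.1) and normoxic levels came from 1 fit of all 12 libraries. Count ratios of 9 pairs of partner genes were tested by exact permutation of oxygen labels within lines, with adjusted p under 0.05 as the threshold. Alternatives were DESeq2 1.42.0, limma 3.58.1 on log2(RPKM + 0.1) and log2(RPKM + 1), RLE factors, library size alone, no filter, a 2 CPM filter, the joint fit, a replicate block, each library left out, and other thresholds. Deviations of libraries with the same replicate number in the labels correlated at 0.356 in RKO, 0.371 in A549 and 0.145 in H460. The numbers may thus pair the samples, although the labels do not say what a number marks. Only the replicate block keeps such pairs, while the main fits and the permutation of oxygen labels within lines ignore them. The calls above are unblocked. Blocked results are given for the member calls within a line and the ratio tests that they change. For differences of the effect between lines, the block is given by count alone. The blocked ratio test was chosen after seeing the data.

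The 35 genes and all lists were chosen with earlier results of these data known. Every member called in a line is named. Of other genes, the regulators and hypoxia genes are named, and of each further list the called gene with the highest and the lowest fold change per line, with a mean of at least 100 counts. Some genes that this rule names are not reported here. Scripts were tested on simulated data.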

Additional observations from a re-analysis of the deposited data

Results flagged for a closer look

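The results listed here were singled out because the hypoxia effect on 1 gene was not the same in a pair of lines by the interaction term of the 12-library edgeR fit, with adjusted p from 0.000103 to 0.0908. For each gene the pair with the smallest p is given, as a difference of log2 fold changes. The rows share libraries and are not independent of each other.

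Between A549 and H460 (A549 minus H460), 15 genes are listed. In the purine route the difference was 1.89 for PRPS1, 1.10 for PRPS2, 0.91 for GART, 1.67 for PFAS, 0.95 for ATIC and 1.31 for ADSS. In the pyrimidine route it was 2.17 for CAD, 0.85 for UMPS and 1.56 for CTPS1. Among the deoxynucleotide genes it was 1.57 for DCTPP1, 1.46 for NME1 and 0.56 for TYMS. Of the folate and methionine genes MTHFD1 had 1.46, MAT2B 0.51 and SHMT2 -1.48, the last being the 1 gene of the 15 with the higher effect in H460.

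Between RKO and H460 (RKO minus H460), 10 genes are listed. The difference was 2.07 for PSAT1, 1.35 for PSPH, 1.65 for SHMT1, 1.68 for TK1 and 1.15 for RRM2, all with the lower effect in H460. It was -1.11 for MTHFD1L, -0.62 for PPAT, -1.09 for PAICS, -1.17 for IMPDH1 and -1.11 for IMPDH2, all with the lower effect in RKO. Between RKO and A549 the gene is ADSSL1, with 2.50.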

How the results depend on the processing

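Of the other settings, those that changed a summary count of the 35 genes by more than 1.5 times were these, and the cause was not tested unless it follows from the setting. Genes lower in A549 numbered 2, but 7 with DESeq2, 7 without the low count filter, 9 with the replicate block, 6 in the joint fit, 1 with library size alone, 1 in each limma fit and 1 at an adjusted p under 0.05, and 2 to 12 with 1 library left out. Over all genes the lower calls in A549 moved too, from 65 to 263 with DESeq2, 213 without the filter, 723 with the block and 440 in the joint fit. Genes higher in A549 numbered 0 to 1 and genes higher in RKO 1 to 3 with 1 library left out. A fold change over 2 left 1 gene higher and 6 lower in RKO, 7 lower on average and 8 normoxic differences between A549 and H460. Without a minimum fold change 7 were higher in H460, and 3 were higher and 25 lower on average. Genes whose effect differed between RKO and A549 numbered 9, but 15 with DESeq2, 14 without the filter, 18 with the replicate block, 5 at an adjusted p under 0.05 and 3 to 16 with 1 library left out. The block moved no other count by over 1.5 times. In the block, a test chosen after seeing the data, the mean changes of the ratios PRPS1/PRPS2 (-0.54), PAICS/PPAT (0.39), ADSS/ADSSL1 (-2.47), CTPS1/CTPS2 (-1.38) and MAT2A/MAT2B (-0.92) no longer passed, each at an exact permutation adjusted p of 0.0563. Each had an unadjusted permutation p of 0.0312, the smallest of the block, so the block could give none of them a lower p. With 1 library left out, the mean log2 change of the ratio ranged from 0.34 to 0.80 for MTHFD2/MTHFD1, from 0.18 to 0.34 for IMPDH2/IMPDH1 and from -0.25 to 0.014 for RRM2/RRM1. Without A549 normoxia replicate 2, MTHFD2/MTHFD1 (0.80) and IMPDH2/IMPDH1 (0.33) passed, with exact permutation adjusted p of 0.0476 and 0.0417. No result that passed its threshold turned its direction under these settings. With 1 library left out, the lone sample of its group was assumed to vary like the others. ADSSL1 in RKO normoxia rested on 24 and 40 reads.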
